A study of Bos taurus with 13 samples.

Results

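*Mx1*, *MX2* and *TMPRSS2* lie next to each other on bovine chromosome 1, and their RNA was described in the whole blood of dairy cows with a high or a low cortisol concentration in milk. The 3 genes were taken by name from gene count tables that hold 16095 named genes, and all 3 were among the 11033 genes with enough counts to be tested. *Mx1* and *TMPRSS2* were chosen by their fold change between the groups, since the study had listed both from that comparison on a larger set of selected cows that includes these, and *MX2* is the gene beside them. Their values in that comparison are therefore a description and no independent evidence. The study made that comparison by DESeq2 and called many more genes than were called here. The study's listing did not use the relation of the genes to each other within a group of cows. The members and tests here were chosen with earlier results of these data known, so that relation may not be free of selection.

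The samples were blood of 13 cows labelled Italian Red Pied, 1 sample a cow, with 7 in the high group (replicates 1 to 7) and 6 in the low group (replicates 8 to 13). No treatment was given. The cows were ranked on the cortisol of their milk and taken from either end, the animals were in milk and clinically healthy, and no age of a single cow was given. Blood was drawn from the tail vein into PAXgene tubes, in which RNA is kept stable, and haemoglobin RNA was not removed.

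The Mx proteins are large GTPases of the dynamin superfamily that block the replication of many viruses inside the cell. Their genes are switched on by type I and type III interferons, and in cattle the level of Mx RNA in blood leukocytes is widely used as a sign of an interferon response, for example in early pregnancy or viral infection. *TMPRSS2* encodes a transmembrane serine protease of epithelial cells that cleaves the surface proteins of influenza viruses and coronaviruses. It is best known from prostate, airway and gut epithelium and is not one of the classical interferon-induced genes.

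A high cow had 12198355 to 23709740 reads counted on named genes and a low cow 11045599 to 28124575. Values were expressed as CPM, counts per 1000000 counts on the genes tested, after TMM scaling. Summed levels of gene lists were per 1000000 counts on all named genes, also after TMM scaling. A count of 0 allows up to 3 counts, which stood for 0.107 to 0.272 per 1000000 named counts before TMM scaling. Such limits, and the intervals of shares given for single cows, cover counting error only. The share of counts on haemoglobin genes was 0.0282% to 0.815% in high cows and 0.0114% to 0.0552% in low cows. The samples were bulk blood, so fewer cells of a type and less RNA per cell cannot be told apart. Markers of blood leukocytes were counted in every cow, with summed levels of 4726 to 10033 CPM for 6 neutrophil genes and 2755 to 5088 CPM for 9 T cell genes.

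On the UMD3.1 build, the gene models of the count tables place *MX2* on the plus strand of chromosome 1 from 143119272 to 143155057, with 15 exons that sum to 2966 bases. *Mx1* follows on the plus strand from 143176083 to 143204865, with 14 exons and 2407 bases. *TMPRSS2* is on the minus strand from 143211539 to 143246217, with 13 exons and 2377 bases. *MX2* ended 21025 bases before *Mx1* began, and the 3' ends of *Mx1* and *TMPRSS2* faced each other at a gap of 6673 bases. The *TMPRSS2* exon nearest to *Mx1* was 860 bases long and made up 36.2% of the exon length of *TMPRSS2*. No exon of one gene overlapped an exon of another. In the RefSeq annotation of another build, ARS-UCD2.0, no gene lay between *MX2* and *Mx1* or between *Mx1* and *TMPRSS2* either. The headers of the count tables show no option for strand, so reads from either strand were counted on each gene and reads copied from *Mx1* transcripts that run past its annotated end cannot be told apart from reads of *TMPRSS2*. The coding sequences of *Mx1* and *MX2* are related. The headers show no option for counting reads that map to several places, and how the aligner placed reads shared by both is not given in the sources used here. The part of either in the values below was not tested.

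*Mx1* was the most abundant of the 3 genes. Its counts ran from 3499 in high replicate 4 to 58836 in low replicate 8, and its level was 224 to 921 CPM in the high group (median 359) and 317 to 2254 CPM in the low group (median 657). The highest cow exceeded the lowest 10.1-fold. By mean CPM, *Mx1* ranked 200 among the 11033 genes tested.

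*MX2* counts ran from 402 in high replicate 3 to 12169 in low replicate 8. Its level was 32.7 to 295 CPM in the high group (median 57.4) and 45.8 to 466.1 CPM in the low group (median 135), a 14.3-fold range over the cows. High replicate 5 stood well above the other high cows, of which the next was at 84.8 CPM.

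*TMPRSS2* was counted in every cow but at a low level. The high cows, replicates 1 to 7, had 21, 59, 15, 4, 88, 56 and 31 counts. The low cows, replicates 8 to 13, had 290, 44, 32, 31, 90 and 53 counts. These came to 0.256 to 3.81 CPM in the high group (median 1.43) and 1.14 to 11.1 CPM in the low group (median 3.25), a 43.5-fold range, and the 4 counts of high replicate 4 were close to the floor of 0.210 CPM in that cow. Of the 814 counts in all cows, 35.6% came from low replicate 8, which was the highest cow for all 3 genes. *TMPRSS2* ranked 9301 of 11033 by mean CPM.

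**Figure D1:**
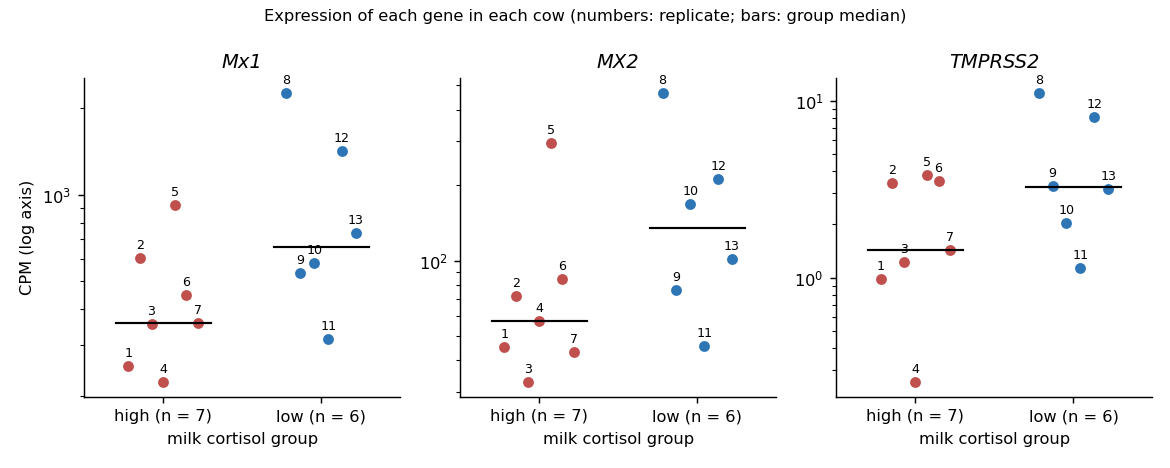
Level of *Mx1*, *MX2* and *TMPRSS2* in each cow, in CPM on a log axis, for 7 cows with high and 6 with low milk cortisol. Points are cows with their replicate number and bars are group medians. Low replicate 8 is the highest cow in each panel, and the groups overlap for every gene.

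Per kilobase of exon, the level was 288 CPM/kb ± 237 (SD, n = 13) for *Mx1*, 44.1 CPM/kb ± 42.9 (SD, n = 13) for *MX2* and 1.41 CPM/kb ± 1.29 (SD, n = 13) for *TMPRSS2*. The order *Mx1* over *MX2* over *TMPRSS2* held in 13 of 13 cows. The mean level per kilobase of *Mx1* was 6.53 times that of *MX2*, with single cows at 3.85 to 13.5 times, and 204 times that of *TMPRSS2*. The lowest *MX2* level per kilobase in any cow was 2.36 times the highest *TMPRSS2* level per kilobase, so these neighbours in the order did not overlap over the cows, while those of *Mx1* (lowest 92.9 CPM/kb) and *MX2* (highest 157 CPM/kb) did.

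The first question was whether *TMPRSS2* follows *Mx1* from cow to cow. It did: cows with much *Mx1* had much *TMPRSS2*, although the levels were far apart. Over the 13 cows, the log2 CPM of *Mx1* and *TMPRSS2* correlated with a Pearson r of 0.926 (permutation p = 1e-05, the smallest that 100000 resamples can give) and a Spearman rho of 0.918 (permutation p = 5e-05). *MX2* and *Mx1*, the related pair on the same strand, correlated with r = 0.894 (permutation p = 7e-05) and rho = 0.846 (permutation p = 6.4e-04). *MX2* and *TMPRSS2*, with *Mx1* between them on the chromosome, correlated with r = 0.756 (permutation p = 0.00244) and rho = 0.802 (permutation p = 0.00149). These were the 3 pairs tested, and the largest p of the Pearson coefficients after Benjamini-Hochberg adjustment over the pairs was 0.00244.

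Low replicates 8 and 12 had the *Mx1* levels farthest from the median. Without them, r was 0.874 for *Mx1* and *TMPRSS2* (permutation p = 4e-04, n = 11) and 0.795 for *Mx1* and *MX2* (permutation p = 0.00283, n = 11). For *MX2* and *TMPRSS2*, r without high replicate 5 and low replicate 8 was 0.664 (permutation p = 0.0254, n = 11). All 3 relations thus remained positive without the most distant cows.

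Because *Mx1* and *TMPRSS2* had both been listed for the same group difference, the relation was also taken within each group, where that difference has no part. Within the high group, r of *Mx1* and *TMPRSS2* was 0.874 (exact permutation p = 0.0117, n = 7) and rho was 0.964 (exact permutation p = 0.00278, n = 7). Within the low group, r was 0.971 (exact permutation p = 0.00556, n = 6) and rho was 0.829 (exact permutation p = 0.0583, n = 6), so the rank coefficient missed 0.05 there. For *Mx1* and *MX2*, r was 0.793 in the high group (exact permutation p = 0.0294, n = 7) and 0.934 in the low group (exact permutation p = 0.00694, n = 6), and rho was 0.643 (exact permutation p = 0.139) and 0.943 (exact permutation p = 0.0167). *MX2* and *TMPRSS2* gave r = 0.562 in the high group, which was not significant (exact permutation p = 0.193, n = 7), and r = 0.852 in the low group (exact permutation p = 0.0375, n = 6), with rho at 0.679 (exact permutation p = 0.110) and 0.771 (exact permutation p = 0.103).

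**Figure D2:**
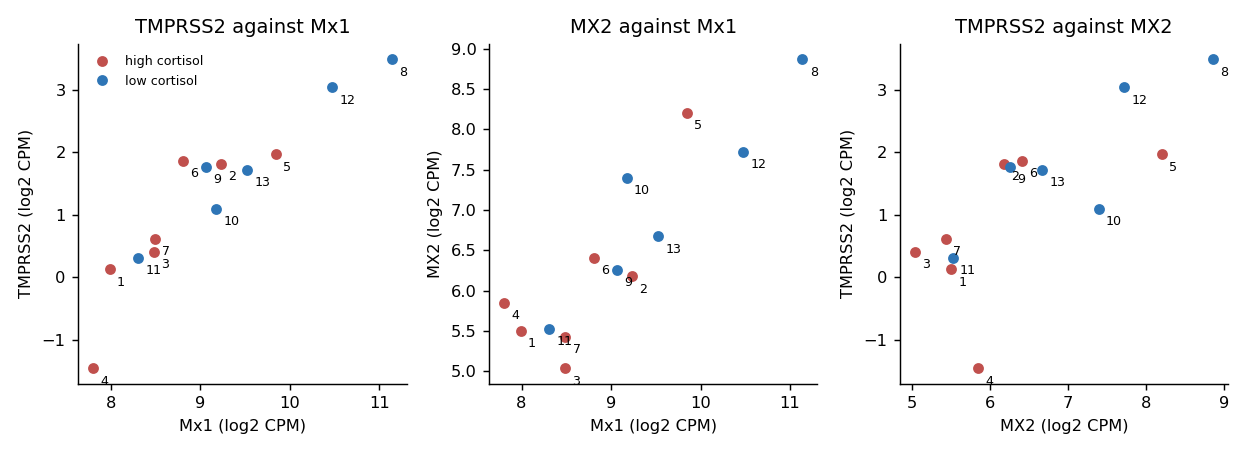
The 3 pairs of genes in log2 CPM (prior count 2), a point a cow, with high cortisol in red, low cortisol in blue and the replicate number beside each point. *Mx1* and *TMPRSS2* lie along a line with r = 0.926, while high replicates 4 and 5 and low replicate 10 widen the panel of *MX2* and *TMPRSS2* (r = 0.756).

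The same question was put to every gene with edgeR's quasi-likelihood test, using the centred log2 CPM of *Mx1* as the covariate. The slope is the log2 change of a gene for each log2 unit of *Mx1*, and a slope of 1 means that a gene changes in proportion to *Mx1*. *TMPRSS2* had a slope of 1.21 (SE 0.15, adjusted p = 5.72e-04) and ranked 4 of 11032 genes by p. *MX2* had a slope of 1.08 (SE 0.13, adjusted p = 5.77e-04) and ranked 7. Of all genes tested, 46 had a positive slope past the adjusted p of 0.05, a share of 0.417%, and 5 had a negative one. Many more genes had an edgeR p under 0.05 before adjustment, 2512 of 11033 with *Mx1* itself included. Of these, 905 had a positive and 1607 a negative slope, so a weaker relation to *Mx1* was common and more often negative. With the group as a further covariate the slopes were 1.25 (SE 0.18, adjusted p = 0.00415) for *TMPRSS2* and 1.12 (SE 0.16, adjusted p = 0.00365) for *MX2*, where 0.29% of genes were called with a positive slope.

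The slopes of the groups were not shown to differ. The slope of *TMPRSS2* was 0.35 higher in the high group than in the low group (SE 0.41, edgeR p = 0.404 before adjustment, n = 13), and that of *MX2* was higher by 0.14 (edgeR p = 0.694 before adjustment). This test has little precision, since the standard error is a large part of the slope itself. Leaving out high replicate 4, the cow with 4 *TMPRSS2* counts, brought the difference for *TMPRSS2* to -0.01, and leaving out high replicate 5 raised it to 1.02 (SE 0.50, edgeR p = 0.0592 before adjustment, n = 12).

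As counts, *TMPRSS2* stood at 4.30 ± 2.08 per 1000 *Mx1* counts in the high group (SD, n = 7, range 1.14 to 7.90) and at 4.71 ± 1.10 in the low group (SD, n = 6, range 3.52 to 6.18). Within the low group, *TMPRSS2* in CPM ranged 9.78-fold and its count per *Mx1* count 1.76-fold. Within the high group, where the lowest cow had 4 counts, these ranges were 14.9-fold and 6.91-fold. High replicate 4 had the lowest share of *TMPRSS2* in the sum of both genes, 0.114% (exact binomial 95% interval 0.0311% to 0.292%). High replicate 6 had the highest, 0.784% (0.592% to 1.02%). The other 11 cows lay between 0.340% and 0.614%. The log2 ratio of *TMPRSS2* to *Mx1* counts averaged -8.00 in the high group and -7.75 in the low group, a difference of -0.25 (exact two-sided permutation p = 0.569, n = 7 and 6).

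*MX2* stood at 182 ± 82.3 counts per 1000 *Mx1* counts in the high group (SD, n = 7, range 91.6 to 320) and at 179 ± 60.8 in the low group (SD, n = 6, range 138 to 291). Its log2 ratio to *Mx1* differed between the groups by -0.04 (exact two-sided permutation p = 0.907, n = 7 and 6). High replicate 5 and low replicate 10 had the most *MX2* for their *Mx1*, and high replicate 3 the least.

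**Figure D3:**
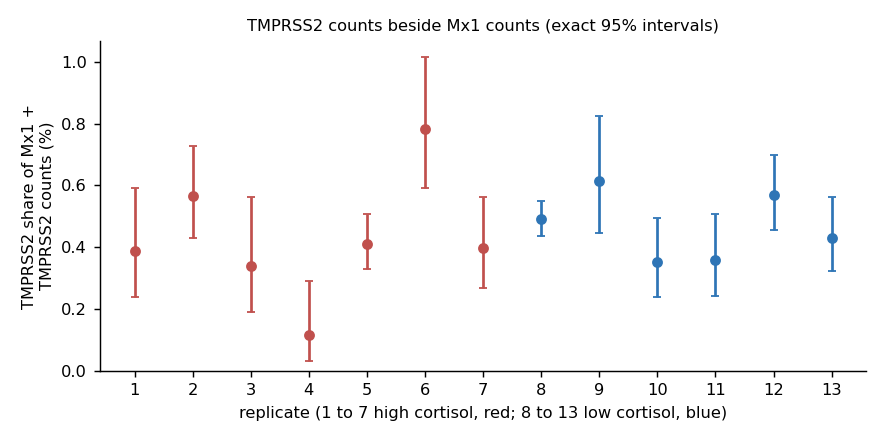
Share of *TMPRSS2* in the summed counts of *Mx1* and *TMPRSS2* in each cow, in percent, with exact binomial 95% intervals that cover counting error only. High cortisol is red and low cortisol is blue. High replicate 4 is lowest at 0.114% and high replicate 6 highest at 0.784%, and the low cows lie between 0.351% and 0.614%.

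The levels of the 3 genes were then set beside an interferon score, the average log2 CPM of 31 interferon-induced genes after each gene's own mean was taken off, which holds none of the 3 genes. The score was -0.80 to 0.94 in high cows and -0.36 to 1.39 in low cows. Its correlation with *MX2* was 0.966, with *Mx1* 0.899 and with *TMPRSS2* 0.764 (Pearson r of log2 CPM over 13 cows, in libraries that all these genes share). On the score, the slope was 1.63 for *MX2* (SE 0.11, adjusted p = 2.0e-07), 1.28 for *Mx1* (SE 0.15, adjusted p = 6.93e-05) and 1.41 for *TMPRSS2* (SE 0.29, adjusted p = 0.0264), all by edgeR. The share of all genes called with a positive slope on the score was 0.77%. All 3 genes thus rose with the score, *MX2* most closely.

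Next, *Mx1* and the score were put in 1 fit. The slope of *MX2* on *Mx1* was 0.14 (SE 0.19, edgeR p = 0.471 before adjustment, n = 13), while its slope on the score was 1.46 (edgeR p = 5.0e-05 before adjustment, adjusted p = 0.0690). The slope of *TMPRSS2* on *Mx1* was 1.67 (SE 0.35, edgeR p = 2.25e-04 before adjustment, n = 13), while its slope on the score was -0.70 (edgeR p = 0.159 before adjustment). No gene passed the adjusted threshold for a slope on *Mx1* in this fit, *TMPRSS2* included (adjusted p = 0.958), and 111 genes, 1.01% of those tested, had a positive slope with an unadjusted p under 0.05. By that p, *TMPRSS2* ranked 2 and *MX2* 4749 of 11032. With each cow left out in turn, the slope of *TMPRSS2* on *Mx1* beside the score stayed between 1.48 and 1.75 and that of *MX2* between 0.07 and 0.30. *Mx1* and the score moved together over these cows, which widens the errors of both slopes, and the difference between the slopes of *TMPRSS2* and *MX2* was not tested.

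Around these genes, 15 named genes lay within 1000000 bases of the 3, themselves included. Of the 7 others that could be tested, 0 had a slope on *Mx1* past the adjusted threshold, at slopes from -0.40 to 0.64. As 0.417% of all genes were called, a count of 0 among so few genes is near the background, here and in the short lists further on, and nothing is read from it. *FAM3B*, a secreted cytokine-like protein known from pancreatic islets, ended 4177 bases before *MX2* on the same strand and came nearest. It was at 5.66 CPM with a slope of 0.64 (SE 0.14, edgeR p = 2.56e-04 before adjustment, adjusted p = 0.0522) and r = 0.777 with *Mx1*. On the interferon score its slope was 1.02 (SE 0.16, adjusted p = 0.00145), and beside the score its slope on *Mx1* was -0.08 (edgeR p = 0.777 before adjustment, n = 13).

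The farther genes had slopes of either sign. *BACE2*, an aspartic protease, had a slope of 0.18 (SE 0.22), *PRDM15* 0.02 (SE 0.09), *C2CD2* 0.03 (SE 0.14), *ZBTB21* -0.20 (SE 0.12), the cholesterol exporter *ABCG1* -0.01 (SE 0.08) and the trefoil factor *TFF2* -0.40 (SE 0.44). On the far side of *TMPRSS2* the next named gene, *RIPK4*, lay 263014 bases away and had 0 counts in all cows. *TFF3* also had 0 counts, *TFF1* 2, *UMODL1* 18 and *TMPRSS3*, another transmembrane protease, 36 over the 13 cows, and these were not tested.

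**Figure D4:**
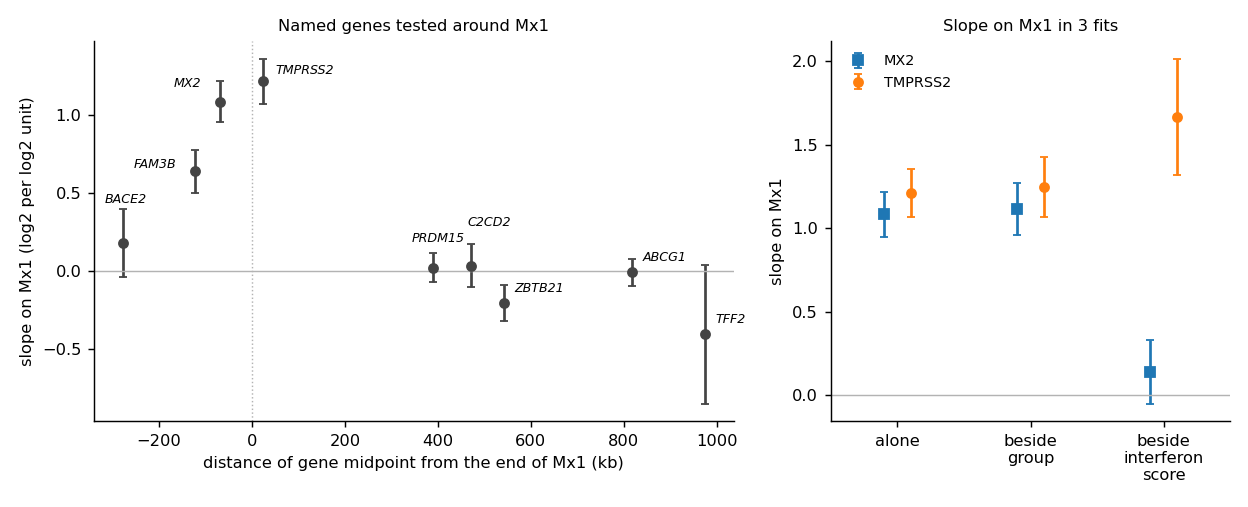
Left, slope on *Mx1* (log2 change per log2 unit of *Mx1*, ± SE) of the 9 tested genes around *Mx1*, against the distance of each gene's midpoint from the end of *Mx1* in kb. Right, slopes of *MX2* and *TMPRSS2* on *Mx1* alone, beside the group and beside the interferon score, where *MX2* falls to 0.14 and *TMPRSS2* stands at 1.67.

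For scale, tail-to-tail neighbours were listed over the genome, that is, pairs of tested genes on opposite strands whose 3' ends face each other within 10000 bases. Over 1194 such pairs the median Pearson r of log2 CPM across the 13 cows was 0.310, with quartiles of -0.016 and 0.576. *Mx1* and *TMPRSS2* were among the 7 pairs with an r of 0.926 or more. This is a description over pairs that share the same libraries. *Mx1* and *TMPRSS2* were chosen for the same group difference, which enters their r over both groups, and the other pairs were not chosen so. With each group's mean taken off, their r was 0.906, and this was not computed for the other pairs.

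Among all other tested genes, *TMPRSS2* was the second most like *Mx1*, and *Mx1* was the second most like *TMPRSS2*, by Pearson r of log2 CPM over the 13 cows. The 10 genes most like *Mx1* were *PRPSAP1*, a subunit partner of the enzyme that makes phosphoribosyl pyrophosphate (r = 0.946), *TMPRSS2* (0.926), the leukocyte actin regulator *NCKAP1L* (0.919), *HERC6* (0.913), *ISG15* (0.909), *DHX58* (0.908), *LGALS3BP* (0.905), *EIF2AK2* (0.901), *PARP12* (0.90) and *IRF7* (0.897). The last 7 of these are known interferon-induced genes, 6 of them on the list of the score and *IRF7* on that of interferon signalling. *MX2* came twelfth. The median r with *Mx1* over 11032 genes was 0.018, and 9 genes had an r over 0.9.

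The genes most like *MX2* were *PARP12* (r = 0.972), the RNA-activated kinase *EIF2AK2* (0.957), the antiviral radical enzyme *RSAD2* (0.956), the ubiquitin ligase *TRIM25* (0.953) and the nuclear exonuclease *XRN2* (0.952). *Mx1* ranked 20 and *TMPRSS2* 90 on that list. Those most like *TMPRSS2* were the zinc finger gene *ZNF592* (r = 0.958), *Mx1* (0.926), *LGALS3BP* (0.877), *NCKAP1L* (0.874) and *TMEM131* (0.873), with *MX2* at rank 86. By Spearman rho the order of the first 2 was the other way, at 0.901 for *ZNF592* and 0.918 for *Mx1*, and the difference was not tested. The slope of *ZNF592* on *Mx1* was 0.17 (SE 0.04, adjusted p = 0.0872).

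The rest of the pathway was read from gene lists. Of 31 interferon-induced genes tested, 21 had a positive slope on *Mx1* past the adjusted threshold and 0 a negative one, with a median slope of 0.59 against 0.004 over all genes tested. *ISG15*, a ubiquitin-like protein attached to other proteins, had a slope of 1.5 (SE 0.18), *RSAD2* 1.18 (SE 0.14), *IFI6* 1.05 (SE 0.14) and *DHX58*, a sensor of viral RNA, 0.95 (SE 0.11). The slope of *TMPRSS2*, 1.21, was above that of every gene of this list but *ISG15* and *OAS2*, whose slope of 1.34 (SE 0.28) narrowly missed the threshold (adjusted p = 0.0550). Of 12 genes of interferon signalling, 1 passed, the transcription factor *IRF7* with a slope of 0.82 (SE 0.10). The median slope of that list was 0.13.

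The relatives of the 3 genes were also read. Of 9 other genes of the dynamin superfamily tested, 0 passed in either direction, with a median slope of 0.05. The slopes farthest from 0 were -0.34 for *MFN1*, which fuses mitochondria (SE 0.09, adjusted p = 0.106), and -0.28 for *ATL2* (SE 0.07, adjusted p = 0.109), and *DNM2*, the general dynamin of endocytosis, had one of 0.17 (SE 0.06, adjusted p = 0.132). Of 17 other transmembrane serine proteases listed, 14 were in the tables, 5 of them had 0 counts in every cow and 2 were tested. *ST14*, matriptase, had a slope of 0.10 (SE 0.15) at 3.21 CPM, close to the mean of 3.35 CPM of *TMPRSS2*, and *TMPRSS6* one of -0.04 (SE 0.19), and neither passed the threshold. Beside the group, the slope of *ST14* was 0.29 (SE 0.16).

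*TMPRSS2* is an epithelial gene, and 8 epithelial markers were listed. Their summed level was 6.73 to 14.8 CPM in the high group and 6.84 to 12.3 CPM in the low group. Over all cows, *EPCAM* had 574 counts, *CDH1* 770, *ELF3* 742, *KRT19* 86, *KRT8* 26, *CLDN7* 15, *KRT18* 10 and *CLDN4* 10, so *KRT8*, *KRT18* and the claudin genes were near 0. The slopes on *Mx1* of the 3 epithelial markers tested were -0.25 (SE 0.20) for *EPCAM*, -0.14 (SE 0.22) for *CDH1* and 0.24 (SE 0.13) for *ELF3*, and 0 passed the threshold. No gene of the neutrophil, T cell, B cell, monocyte, cytotoxic, eosinophil, platelet or erythroid lists passed either. The medians of those lists ran from -0.72 for erythroid genes to 0.12 for neutrophil genes. Single markers lay farther from 0, with slopes of -0.37 for *CD3G* (SE 0.09), -0.39 for *TRAT1* (SE 0.10), -0.44 for *KLRK1* (SE 0.12) and 0.30 for *CSF3R* (SE 0.09). Their edgeR p before adjustment was 0.00112, 0.00152, 0.00264 and 0.00382. The slope was positive in 6 of 9 T cell, 1 of 6 cytotoxic and 4 of 6 neutrophil genes.

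The second comparison was that of the cortisol groups. All 3 genes were lower on average in the high group, and none passed the test over all genes. In CPM, as mean ± SD over 7 high and 6 low cows, *Mx1* was at 452 ± 242 against 973 ± 731, *MX2* at 90.0 ± 92.1 against 178 ± 154 and *TMPRSS2* at 2.09 ± 1.45 against 4.81 ± 3.92. Below the median of the low group lay 6 of 7 high cows for *Mx1*, 6 of 7 for *MX2* and 4 of 7 for *TMPRSS2*. The groups overlapped for each gene, with 2, 1 and 2 low cows above every high cow.

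By edgeR's quasi-likelihood test the log2 fold change of the high over the low group was -1.11 for *Mx1* (SE 0.43), -0.98 for *MX2* (SE 0.57) and -1.19 for *TMPRSS2* (SE 0.56), and the adjusted p was 0.998 for each. No gene was called in this comparison, 0 of 11033 or 0.0%, and 231 had an unadjusted p under 0.05, of which 128, or 1.16% of those tested, were lower in the high group. *Mx1* and *TMPRSS2* were among those 128 and *MX2* was not. DESeq2 called 1 gene, none of these 3, and limma-voom 0. Exact permutation of the cows (1716 splits, two-sided, smallest possible p = 5.83e-04) was also applied, and the difference in mean log2 CPM was -0.95 for *Mx1* (p = 0.0763), -0.99 for *MX2* (p = 0.136) and -1.14 for *TMPRSS2* (p = 0.121). Adjusted over the 3 genes, the exact permutation p was 0.136 for each.

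The size of this difference depended on single cows. Without low replicate 8 the log2 fold changes by edgeR were -0.66 for *Mx1* (SE 0.36), -0.42 for *MX2* (SE 0.50) and -0.72 for *TMPRSS2* (SE 0.55). Without high replicate 5 they were -1.38 for *Mx1* (SE 0.40), -1.67 for *MX2* (SE 0.46) and -1.41 for *TMPRSS2* (SE 0.59). No gene was called in either fit. Without high replicate 5 the exact permutation p before adjustment was 0.0303 for *Mx1*, 0.0260 for *MX2* and 0.0887 for *TMPRSS2*. Adjusted over the 3 genes, it was 0.0455 for *Mx1*, 0.0455 for *MX2* and 0.0887 for *TMPRSS2*. In the interferon-induced list, whose genes vary together over these cows, the log2 fold change was below 0 in 31 of 31 genes, as in 5148 of all 11033, with a median of -0.58 against 0.012 over all genes, and 0 were called. Of the list, 5 genes had an unadjusted p under 0.05. Red cell genes lay the other way: the 3 erythroid genes tested all had an unadjusted p under 0.05 and a median log2 fold change of 2.68, and their list summed to 372 to 7832 CPM in high and 136 to 567.5 CPM in low cows. Over all 11033 genes, 103 were higher in the high group at that p. *HBB* and *HBM* among the 3 are haemoglobin genes, whose summed share was 0.815% in high replicate 7 and 0.262% in high replicate 5, the next cow. On the haemoglobin list 3 of 4 genes had such a p, and *HBQ1*, at 0.28 (SE 0.29), had not. With the haemoglobin share as a covariate the log2 fold changes were -1.17 for *Mx1* (SE 0.63), -1.42 for *MX2* (SE 0.89) and -1.12 for *TMPRSS2* (SE 0.81), so the errors were wider and the direction was as before. Beside the interferon score the fold changes were -0.25 for *Mx1* (SE 0.24), 0.04 for *MX2* (SE 0.18) and -0.28 for *TMPRSS2* (SE 0.48).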

How the data were processed

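RNA of whole blood from 13 cows was sequenced, and groups were taken from the sample labels. The authors deposited counts, whole numbers of reads assigned to each gene name, without normalization. Per the file headers they were made with featureCounts 1.4.6-p3 on exons of Ensembl release 88 for UMD3.1, with no option shown for strand, pairs or multiple mapping. The submitters' processing notes and the study's methods name STAR 2.7.3, Subread 1.6.5 and ARS-UCD1.2 instead. The headers also name alignments by animal numbers that differ from those of the tables, in a folder named after goats, and the group of each cow was not checked against another record. Genes without a name share 1 entry, 13.9% to 16.7% of the counts of a cow, which was left out.

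After TMM scaling, CPM and log2 CPM were computed, the latter with a prior count of 2. Genes passing filterByExpr (minimum count 10, minimum total 15) were fitted with edgeR 4.0.16 (quasi-likelihood, robust) in R 4.3.3, for group or for a slope on log2 CPM, with Benjamini-Hochberg adjustment at 0.05 over all genes tested. The standard error is the coefficient divided by the square root of F. Tests were tried on simulated counts first. Permutation tests were written with numpy 2.4.6, exact over splits of the cows or within a group, and with 100000 resamples over 13 cows. Ranks and binomial intervals came from scipy 1.17.1. Ratios had 0.5 added to each count. Alternatives were DESeq2 1.42.0, limma-voom (limma 3.58.1), other size factors, filters, covariates and thresholds, and each cow left out. The fit beside the interferon score with each cow left out was chosen after the slopes had been seen.

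The members, gene lists and tests were chosen with earlier results of these data known. The genes named were the members, all named genes within 1000000 bases, the 10 genes most like *Mx1* and the 5 most like *MX2* and *TMPRSS2*, and up to 4 of each list by slope or CPM. *ZNF592*, *OAS2*, *ST14*, *TMPRSS6*, the epithelial markers and the single blood cell markers were given slopes after their values had been seen.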

Additional observations from a re-analysis of the deposited data

Results flagged for a closer look

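In 24 comparisons over 6 measures, the highest or lowest cow of a group was set against the others of its group. Of these, 2 values lay farther off than Dixon's 95% limit. Chance alone passes that limit in about 1 of 20 groups if the values are normally distributed, which was not tested here. *MX2* in high replicate 5 was at 294.8 CPM, and its gap to the next high cow was 0.801 of the range of the group. This was on the CPM scale. In log2 CPM that cow was at 8.20, the next, high replicate 6, at 6.41 and the lowest, high replicate 3, at 5.04. The gap was thus a smaller part of the range in log2 CPM. The interferon score of the same cow was 0.945, with a gap of 0.613 of the range. The score and *MX2* correlated with a Pearson r of 0.966 over the 13 cows, so the 2 values are not separate findings. *Mx1* and *TMPRSS2* were also highest in that cow among the high group, at 921 and 3.81 CPM, but within the limit.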

How the results depend on the processing

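The slopes on *Mx1* kept their sign in every alternative, 23 for *TMPRSS2* and 24 for *MX2*, and stayed past the adjusted threshold in each but 1. With the interferon score as a covariate they were 1.67 for *TMPRSS2* (adjusted p = 0.958) and 0.14 for *MX2* (adjusted p = 0.994), and the number of genes called fell from 51 to 0. That number was 447 with DESeq2, 117 at an adjusted p of 0.1 and 33 with the group as a covariate. With a cow left out it ran from 13 (without low replicate 8) to 326 (without low replicate 12), and was 33 without high replicate 4. The cause of these shifts was not tested. With a cow left out, the slope ran from 1.10 to 1.34 for *TMPRSS2* and from 1.01 to 1.21 for *MX2*, r from 0.909 to 0.95 for *Mx1* and *TMPRSS2*, from 0.829 to 0.913 for *Mx1* and *MX2* and from 0.656 to 0.844 for *MX2* and *TMPRSS2*, whose r within the high group was 0.562. Without high replicate 4, the lowest in *TMPRSS2*, the difference of slopes reversed to -0.0103 and that of the log2 ratio to 0.0156, and with a cow left out these ran from -0.01 to 1.02 and from -0.42 to 0.02. Between the groups, DESeq2 called 1 gene in place of 0, and beside the interferon score the log2 fold change of *MX2* was 0.0434. The difference in log2 CPM ran with a cow left out from -1.21 to -0.64 for *Mx1*, from -1.34 to -0.62 for *MX2* and from -1.45 to -0.77 for *TMPRSS2*. Without high replicate 5 it was -1.15 for *Mx1* and -1.34 for *MX2*. Their exact permutation p was 0.0303 and 0.0260 before adjustment and 0.0455 for both after adjustment over the 3 genes. With all cows the adjusted p was 0.136 for each gene. High replicate 5 was the highest cow of its group in all 3 genes, and *Mx1* had been chosen by this difference. Nothing is read from these p. *TMPRSS2*, with 4 counts in high replicate 4, had no value under a minimum of 10 counts in every cow. No paired analysis was possible because the groups share no replicate numbers. At 4 to 290 counts a cow, counting error limits single values of *TMPRSS2*.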
